A study of Mus musculus with 16 samples.

Results

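Control astrocytes were compared with control neurons of the mouse neocortex at postnatal day 4 (P4), to describe how these cell types differ when Eed is intact. The members were the libraries whose titles give wild type and either astro or neuro, 7 of the 16 RNA-seq libraries of the series: 5 astrocyte libraries (replicates 1 to 5) and 2 neuron libraries (replicates 1 and 2). No measured value entered this choice.

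All 7 came from mice carrying MADM7-GT/TG;Emx1-cre;XGFAP-lacZ and were Eed +/+, with the strain given as CD1 in the labels and as a mix of C57BL/6 and CD1 in the methods of the study. Mosaic analysis with double markers (MADM) labels sparse cells by recombination between homologous chromosomes, here chromosome 7, and Emx1-Cre restricts it to the progeny of dorsal telencephalic progenitors. Only green cells were used in both groups, and by the direction of the cross both of their chromosome 7 copies are paternal. The human GFAP promoter drove lacZ, so that sorted GFP+/lacZ+ cells were called astrocytes and GFP+/lacZ- cells neurons. The lacZ- gate selects cells without reporter activity and uses no neuronal marker. The labels give individual animals as the replicates of the astrocyte sort, but do not tie astrocyte and neuron libraries to shared animals.

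Cortical astrocytes arise late from the radial glia progenitors that made the neurons before, and still divide in the first postnatal week. They take up glutamate and potassium, secrete proteins that organize synapses, and make much of the cholesterol and lipoprotein of the brain. Neurons are known by their tubulins and neurofilaments, the RNA-binding proteins of the Elavl family, voltage-gated channels and the transcription factors of their layer. Eomes marks intermediate progenitors, the transient daughters of radial glia that produce cortical neurons.

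Reads counted in genes ranged from 477760 to 3178529 in the astrocyte libraries and were 1786836 and 343640 in the neuron libraries. In 5 libraries, astrocyte replicates 1, 2, 4 and 5 and neuron replicate 1, between 60.5% and 76.6% of the reads aligned uniquely. The exceptions were astrocyte replicate 3, with 38.1%, and neuron replicate 2, with 31.0%, and of their uniquely aligned reads 48.1% and 60.3% lay outside genes, against 9.12% to 19.8% in the well aligned libraries. Neuron replicate 1 ranked genes more like astrocyte replicate 1 (Spearman's rho = 0.850 over 12254 genes, a description of libraries that share depth and composition) than like neuron replicate 2 (rho = 0.600). Levels are therefore given per library, always astrocyte replicates 1 to 5 and then neuron replicates 1 and 2. They are TMM-scaled CPM (reads of a gene relative to the reads counted in the 12254 genes tested, after TMM scaling). For each list with tested members, counts of genes are given over all 7 libraries and over the 5 well aligned ones. In bulk samples such as these, fewer cells of a type and less RNA per cell cannot be told apart. The library numbers form 2 unbroken runs, and what a run marks is not stated. Both neuron libraries and astrocyte replicates 1 and 2 are in the first run. Astrocyte replicates 3, 4 and 5 are in the second, so cell type and run are partly confounded.

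No gene passed the test between the groups. Of 12254 genes with enough reads, edgeR's quasi-likelihood test called 0 at a Benjamini-Hochberg adjusted p of 0.05 in either direction (percent called, 0), and the smallest adjusted p was 0.244. At an unadjusted p under 0.05 there were 657 genes (5.36%), of which 253 (2.06%) were higher in astrocytes and 404 (3.3%) higher in neurons. DESeq2 called 13 genes, 5 (0.247% of 2028 with an adjusted p) higher in astrocytes and 8 (0.394%) higher in neurons, and limma-voom called 0. The biological coefficient of variation was 0.988, so that a typical gene varied between libraries of a group about as much as its own level. P-values measure only the spread between these libraries.

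What follows is a description of levels. Groups were said not to overlap when every astrocyte library lay above both neuron libraries, or every one below both, and a statement that names no libraries is about all 7. Over all 7 libraries 5.27% of the genes tested did so with the astrocytes higher and 8.73% with the neurons higher. Without astrocyte replicate 3 these shares were 13.9% and 11.9%, and over the 5 well aligned libraries, with a single neuron library, 18.9% and 21.4%. The median log2 fold change of all tested genes, astrocytes over neurons, was 0.14. Unless other libraries or another fit are named, log2 fold changes below are from edgeR over the 7 libraries, and none passed the threshold. The value after ± is an approximate standard error (SE, n = 5 and 2). It was derived from the fold change and the F statistic of the test, and so includes the spread between libraries. List members named beyond those with the highest levels were chosen after their values were seen.

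Marker genes for the sorted cells were examined first. Aqp4, the water channel of astrocyte endfeet, was at 1615, 2879, 317, 1032 and 1533 CPM in the astrocytes and at 465 and 664 CPM in the neurons. Gfap (ENSMUSG00000020932.14, chr11:102887336-102900912, minus strand, GRCm38), an intermediate filament of astrocytes and the gene whose human promoter drove lacZ, was at 339, 1073, 38.1, 258 and 308 CPM against 159.6 and 29.9 CPM. In both cases the 4 well aligned astrocyte libraries lay above both neuron libraries and astrocyte replicate 3 did not. The log2 fold change was 1.39 ± 0.75 for Aqp4 and 2.06 ± 1.03 for Gfap. Transcripts of both genes were present in the libraries labelled neurons.

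Eomes (ENSMUSG00000032446.14, chr9:118478212-118486132, plus strand) had 0 reads in all 5 astrocyte libraries. It was at 43.03 and 17.96 CPM in the neuron libraries, which is 89 and 6 reads. By counting error only, a count of 0 allows 3 counts over the astrocyte libraries together (0.331 CPM on the same scale). Against this floor the Eomes level pooled over the neuron libraries (39.5 CPM) was 119-fold higher. The ratio was 129.9-fold in replicate 1 and 54.2-fold in replicate 2. The neuron reads were taken as exact, so these ratios are not lower bounds, least of all with the 6 reads of replicate 2. Of the 8 genes on the list of intermediate progenitors 6 were tested. Eomes alone (16.7%, against 8.73% of all genes) did not overlap over the 7 libraries, while over the 5 well aligned ones 4 (66.7%, against 21.4%) were higher in neuron replicate 1, Eomes, Neurog2, Insm1 and Gadd45g. Btg2, an antiproliferative gene of neurogenic divisions, was at 190.3, 189, 0, 104 and 34.9 CPM in the astrocytes and 123 and 123 CPM in the neurons, Insm1 at 43.05, 2.97, 0, 38.3 and 18.1 CPM against 59.96 and 2.99 CPM, and Gadd45g at 129.6, 141, 97.3, 115 and 94.7 CPM against 142 and 20.9 CPM.

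Lrrn3, a leucine-rich repeat membrane protein, was at 25.9, 44.9, 0, 10.5 and 15.6 CPM in the astrocytes and 67.2 and 68.8 CPM in the neurons (log2 fold change -1.79 ± 1.25). Npm1, a nucleolar protein of ribosome assembly, was at 218, 196, 122, 220.4 and 148 CPM against 307 and 299 CPM (-0.74 ± 0.52). Neither overlapped between the groups, with both neuron libraries above every astrocyte library. Eed itself, which encodes part of the core of Polycomb repressive complex 2 (PRC2), was read in all 7 libraries, at 43.05, 75.7, 3.81, 38.8 and 25.6 CPM and 58.5 and 77.8 CPM.

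**Figure D1:**
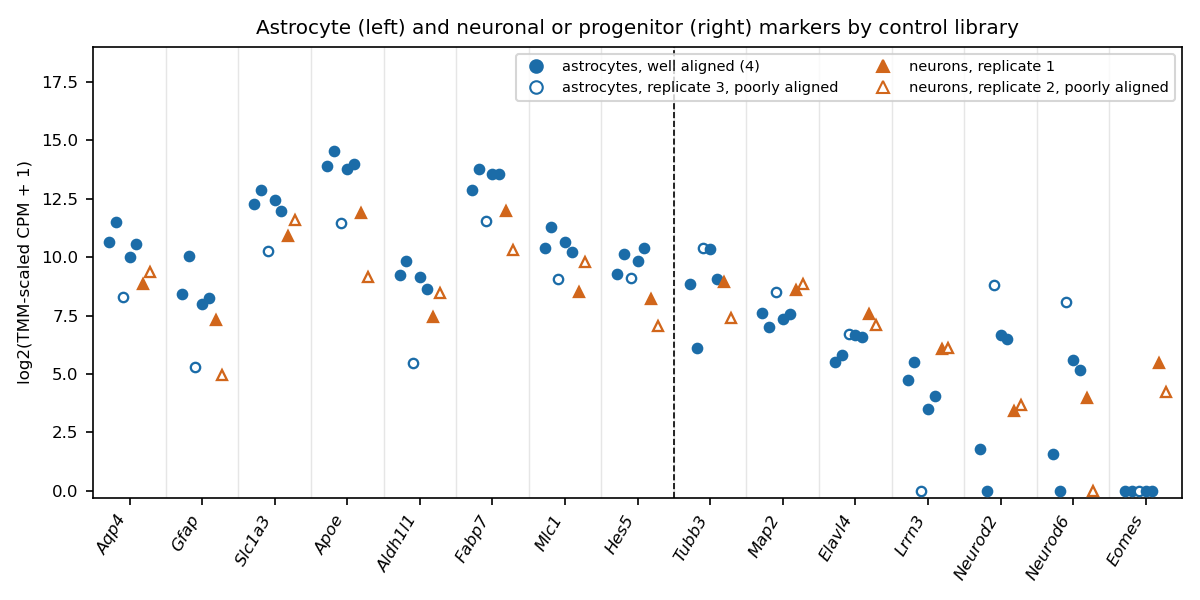
Levels of 15 marker genes in the 7 control libraries, as log2 of TMM-scaled CPM plus 1 on the vertical axis, with one point per library; circles are astrocytes, triangles neurons, and open symbols the poorly aligned libraries. All 4 filled circles lie above both triangles for Aqp4, Gfap, Apoe and Hes5, Eomes is at 0 in every astrocyte library, and for Neurod2 and Neurod6 the open circle, astrocyte replicate 3, is the highest point.

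Promoter windows are shown for genes that carry these comparisons, Gfap for the reporter behind the sort, Hes5 as a Notch target whose levels did not overlap, and Mvd and Nsdhl for the cholesterol pathway. They come from RefSeq (GRCm38.p6) and run from 250 bases before to 50 bases after the annotated start. Capitals mark TTCNNNGAA in Gfap, the spacing read by STAT factors, TGGGAA in Hes5, the core read by the Notch partner RBPJ, and CCAAT in Mvd and Nsdhl, the box read by NF-Y, each searched on both strands.
Gfap: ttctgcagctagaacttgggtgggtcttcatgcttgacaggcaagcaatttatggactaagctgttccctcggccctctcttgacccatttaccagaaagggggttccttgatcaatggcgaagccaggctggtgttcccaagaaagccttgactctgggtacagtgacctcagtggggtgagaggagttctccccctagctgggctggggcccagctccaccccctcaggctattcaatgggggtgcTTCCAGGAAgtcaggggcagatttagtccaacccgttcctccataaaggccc
Hes5: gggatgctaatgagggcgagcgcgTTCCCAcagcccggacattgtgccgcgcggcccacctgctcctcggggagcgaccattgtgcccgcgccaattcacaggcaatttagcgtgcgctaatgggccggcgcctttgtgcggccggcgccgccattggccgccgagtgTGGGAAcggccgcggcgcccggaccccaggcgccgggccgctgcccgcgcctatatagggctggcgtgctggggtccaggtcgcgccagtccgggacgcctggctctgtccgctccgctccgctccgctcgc
Mvd: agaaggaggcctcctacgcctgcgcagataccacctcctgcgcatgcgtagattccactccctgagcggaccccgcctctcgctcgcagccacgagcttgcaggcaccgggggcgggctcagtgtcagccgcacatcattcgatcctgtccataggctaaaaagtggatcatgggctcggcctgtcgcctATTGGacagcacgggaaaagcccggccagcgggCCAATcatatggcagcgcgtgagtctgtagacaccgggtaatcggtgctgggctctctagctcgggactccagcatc
Nsdhl: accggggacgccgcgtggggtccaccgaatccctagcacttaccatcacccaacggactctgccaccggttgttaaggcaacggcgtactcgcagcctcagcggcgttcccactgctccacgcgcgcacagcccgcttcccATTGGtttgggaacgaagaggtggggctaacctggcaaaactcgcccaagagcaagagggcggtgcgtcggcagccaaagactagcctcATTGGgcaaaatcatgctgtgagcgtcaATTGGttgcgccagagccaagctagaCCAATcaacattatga
The windows are chr11:102897151-102897450 (minus strand, inside the span that GENCODE gives Gfap), chr4:154960673-154960972 (plus), chr8:122443373-122443672 (minus) and chrX:72918271-72918570 (plus). Counted from the annotated start, matches begin at -2 in Gfap, at -226 and -82 in Hes5, at -60 and -27 in Mvd, and at -109, -20, 9 and 35 in Nsdhl. Of 32851 mouse windows of this length 8.3% hold TTCNNNGAA, 25.6% hold TGGGAA and 37.4% hold CCAAT. A match describes letters in the window and not a bound site.

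Most genes of astrocyte identity were lower in the neuron libraries than in the well aligned astrocytes, but far from absent. Of 27 astrocyte and radial glia markers, all tested, 18 lay higher in the 4 well aligned astrocyte libraries than in both neuron libraries (66.7%, against 13.9% of all genes) and 1 lay the other way. With astrocyte replicate 3 included, 2 remained on the astrocyte side, Phgdh and Vim (7.41%, against 5.27%). The summed level was 56385, 94670.00, 17107, 64594 and 62335 CPM in the astrocytes and 24867 and 20148 CPM in the neurons. Astrocyte replicate 3 held the lowest sum of the 7. Over the 5 well aligned libraries 23 of the 27 (85.2%, against 18.9%) were on the astrocyte side and 1 (3.7%, against 21.4%) on that of the neuron library. The median log2 fold change of the list was 1.08, and 1.30 over the well aligned libraries.

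Apoe, the main apolipoprotein made in the brain, was at 15513, 23966, 2846, 13958 and 16333 CPM in the astrocytes and 3805 and 572 CPM in the neurons. Fabp7, a fatty acid binding protein of radial glia and young astrocytes, was at 7466, 14093, 3019, 12034 and 11995 CPM against 4004 and 1281 CPM, and Cst3, a secreted protease inhibitor, at 7086, 16511, 2514, 9802 and 8487 CPM against 3739 and 207 CPM. All 3 were high in the well aligned astrocyte libraries, and astrocyte replicate 3 fell between the neuron libraries. Phgdh, the first enzyme of serine synthesis from glucose, was at 306, 357, 124, 283 and 372 CPM against 100.1 and 8.98 CPM, so that even astrocyte replicate 3 lay above both neuron libraries. The exception was S100b, a calcium-binding protein, at 76.8, 46.4, 1.91, 25.1 and 25.6 CPM in the astrocytes and 109 and 138 CPM in the neurons. Ptprz1, a receptor phosphatase of radial glia and oligodendrocyte precursors, overlapped (3524, 4290.1, 1865, 3328 and 2629 CPM and 2957 and 7380.4 CPM).

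The 18 genes of astrocyte transport and coupling separated less. The well aligned astrocytes lay above both neuron libraries for 6 of them (33.3%, against 13.9% of all genes), Aqp4, Atp1b2, Hepacam, Mlc1, Slc1a3 and Slc6a9. The count was 12 (66.7%, against 18.9%) over the 5 well aligned libraries and 0 in the other direction. Over all 7 libraries it held for Slc6a9 alone (5.56%, against 5.27%), a glycine transporter, at 85.6, 104, 26.7, 92.2 and 11.2 CPM in the astrocytes and 3.87 and 0 CPM in the neurons. Slc1a3, the glutamate transporter GLAST, was at 4924, 7525, 1221, 5616 and 3994 CPM against 1914 and 3059 CPM, and Slc1a2, the transporter GLT-1, at 2137, 2446, 261, 1066 and 1430.2 CPM against 916 and 2706 CPM. Slc1a2 thus overlapped, with neuron replicate 2 the highest library. The summed level of the list was 17505, 26773, 3877, 15535 and 12739 CPM in the astrocytes and 6836 and 23802 CPM in the neurons, so that neuron replicate 2 lay within the range of the well aligned astrocytes and neuron replicate 1 below it.

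Transcription factors of the glial lineage were split. Of 18 tested, 5 (27.8%, against 13.9% of all genes) were higher in the well aligned astrocytes than in both neuron libraries, Hes5, Id1, Id2, Id3 and Sox9, and 2 (11.1%, against 11.9% of all genes) were higher in the neurons, Nfib and Zbtb20. All 7 libraries gave 2 in each direction (11.1%, against 5.27% and 8.73%), and the 5 well aligned ones 8 higher in the astrocytes (44.4%, against 18.9%) and 2 higher in the neuron library (11.1%, against 21.4%). Hes5, whose window is printed above, was at 615, 1114, 555, 922 and 1347 CPM in the astrocytes and 292 and 132 CPM in the neurons. Id2, an inhibitor of basic helix-loop-helix factors, was at 628, 972, 1419, 733 and 931 CPM against 316 and 257 CPM, and astrocyte replicate 3 was here the highest library. Its relative Id3 was at 1357, 3012, 168, 1421 and 2537 CPM against 528 and 189 CPM, which overlapped through replicate 3. In the opposite direction, Nfib, which acts in both neurogenesis and gliogenesis, was at 486, 412, 606, 523 and 390.1 CPM in the astrocytes and 799 and 1915 CPM in the neurons, and Zbtb20, a repressor found in astrocytes and progenitors, at 802, 613, 938, 987 and 843 CPM against 1016 and 2116 CPM.

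In the Notch pathway 1 of 16 genes was higher in every astrocyte library and 1 in both neuron libraries (6.25% each, against 5.27% and 8.73% of all genes). With the 5 well aligned libraries these counts were 6 (37.5%, against 18.9%) and 3 (18.8%, against 21.4%). Dll1, a ligand made by cells entering neurogenesis, was at 59.2, 0, 0, 4.56 and 8.72 CPM in the astrocytes and 108 and 126 CPM in the neurons. Nrarp, a target and feedback inhibitor of Notch, was at 54.3, 104, 61.03, 85.3 and 71.04 CPM against 12.6 and 0 CPM. The receptor Notch2 was at 318, 326, 55.3, 349.99 and 329 CPM against 141 and 221 CPM, higher in the well aligned astrocytes and lowest in astrocyte replicate 3. The glycosyltransferase Lfng, which modifies Notch, and the ligand Dner overlapped over the 7 libraries and were higher in the astrocytes over the 5 well aligned ones.

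Of 15 secreted proteins that act on synapses and matrix 14 were tested. Among these 5 (35.7%, against 13.9% of all genes) were higher in the well aligned astrocytes than in both neurons, Chrdl1, Ncan, Sparc, Sparcl1 and Tgfb2, and over all 7 libraries 2 (14.3%, against 5.27%), while 7 (50%, against 18.9%) were so over the 5 well aligned libraries and 1 (7.14%, against 21.4%) was higher in the neuron library there. The log2 fold change was below 0 for 5 of the 14. Ncan, the proteoglycan neurocan, was at 8316, 11294, 2521, 7349 and 8215 CPM against 1906 and 3621 CPM, Sparcl1, also known as hevin, at 3424, 7763, 1566, 3343 and 3062 CPM against 968 and 1966 CPM, and its relative Sparc at 499, 942, 227, 704 and 547 CPM against 231 and 129 CPM. The 2 that did not overlap over all 7 libraries were Chrdl1, an astrocyte factor for AMPA receptor maturation, and Tgfb2, a growth factor. Chrdl1 was at 89.03, 117, 51.5, 84.4 and 26.8 CPM against 23.7 and 23.9 CPM and Tgfb2 at 266, 222, 187, 240.02 and 219 CPM against 101 and 149.6 CPM.

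Cholesterol synthesis and lipid transport had 7 of 23 genes (30.4%, against 5.27% of all genes) higher in every astrocyte library than in both neuron libraries, and 2 (8.7%, against 8.73%) lower. Without astrocyte replicate 3 the astrocyte count was 11 (47.8%, against 13.9%), and over the 5 well aligned libraries 14 (60.9%, against 18.9%), with 3 (13%, against 21.4%) higher in the neuron library. Among the 7 were Mvd and Idi1 of the isoprenoid steps, Sqle, Nsdhl and Dhcr7 of the sterol steps, and Lrp1, a receptor for Apoe particles. Dhcr7 was at 338, 499.9, 223, 339 and 442 CPM in the astrocytes and 134 and 32.9 CPM in the neurons, and Mvd at 174, 161, 162, 132 and 232 CPM against 75.9 and 108 CPM. For Mvd and Sqle astrocyte replicate 3 lay within the range of the other astrocytes. Nsdhl was at 201, 366, 139, 194 and 258 CPM against 107 and 11.97 CPM, Sqle at 410.4, 526, 444, 389 and 379 CPM against 249.98 and 329 CPM, and Lrp1 at 1226, 999.5, 536, 953 and 948 CPM against 289 and 512 CPM. Idi1 was low in every library, at 3.81 to 9.35 CPM in the astrocytes and 1.93 and 0 CPM in the neurons. Its separation rested on few reads, since 3 reads were 5.72 CPM in astrocyte replicate 3 and 8.98 CPM in neuron replicate 2.

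Not all enzymes separated. Hmgcs1, an early enzyme of the pathway, was at 961, 1185, 369.99, 889 and 704 CPM against 554 and 479 CPM and overlapped through replicate 3, and Msmo1, of the sterol steps, at 499, 1028, 454, 514 and 581 CPM against 436 and 619.5 CPM. The genes on the neuron side included Abca1, a cholesterol exporter, at 143 and 308 CPM in the neurons against 103 to 133 CPM in the astrocytes. The median log2 fold change of the list was 0.67, and 0.49 over the well aligned libraries. RefSeq windows were found for 16 of the 23 genes, and 14 of these held CCAAT (14 of 19 windows), among them Mvd, Idi1, Nsdhl and Dhcr7, 4 of the 5 non-overlapping astrocyte-side genes that had a window.

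Glycolytic genes were lower in both neuron libraries than in the well aligned astrocytes for 8 of 17 members (47.1%, against 13.9% of all genes), and over all 7 libraries for 3 (17.6%, against 5.27%), Pfkm, Pkm and Tpi1. The 5 well aligned libraries gave 10 (58.8%, against 18.9%) lower in the neuron library and 1 (5.88%, against 21.4%) higher. No member was higher in both neuron libraries. Aldoc, the aldolase of astrocytes, was at 1846, 3308, 456, 2841 and 2613 CPM in the astrocytes and 670.2 and 138 CPM in the neurons, Aldoa, its widespread relative, at 468, 799.8, 195, 650.2 and 601 CPM against 305 and 80.8 CPM, and Ldhb, a lactate dehydrogenase subunit, at 581, 854, 286, 709 and 538 CPM against 307 and 47.9 CPM. Neuron replicate 2 was the lowest library for all 3, and the list summed to 2304 CPM in neuron replicate 1 and 602 CPM in replicate 2, against 4363, 6905, 2149, 5838 and 5237 CPM in the astrocytes. Gapdh, Pgk1 and Pgam1 were at or under 23.5 CPM in every library. These genes have many near-identical copies in the genome, and with reads counted only where they align uniquely their levels are uncertain.

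**Figure D2:**
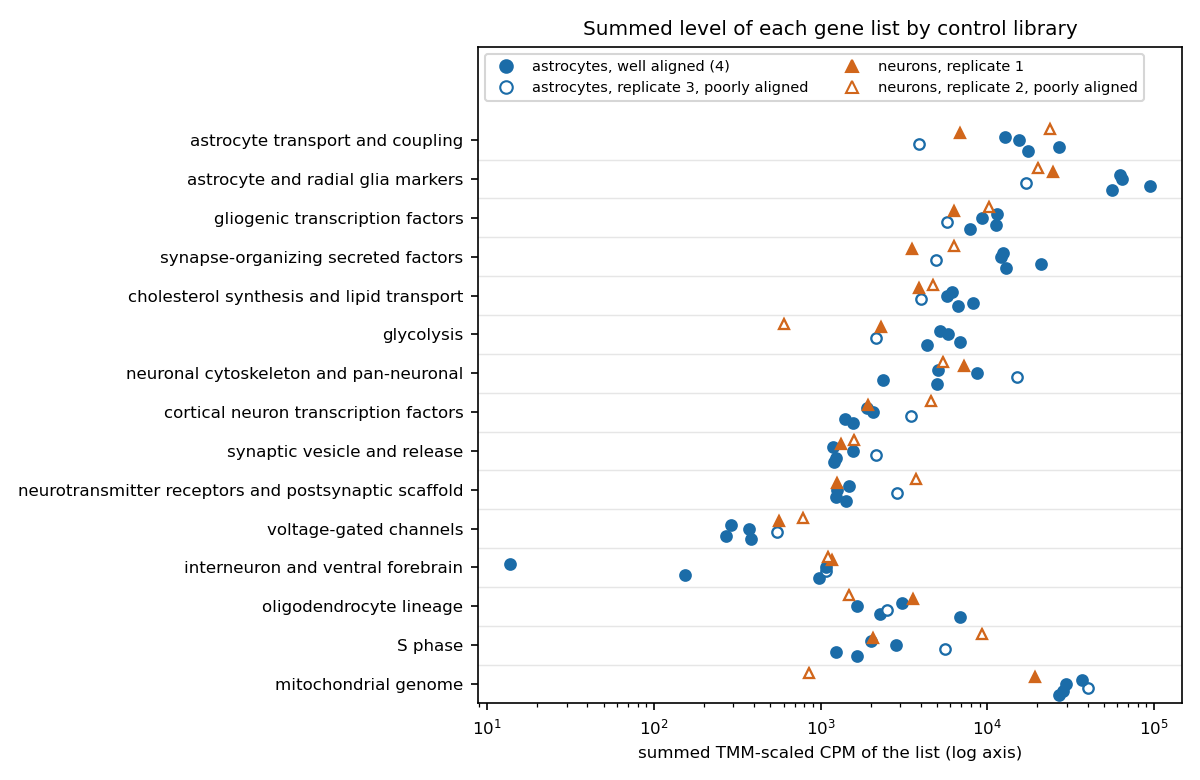
Summed TMM-scaled CPM of 15 gene lists in each control library, on a log axis, with circles for astrocytes, triangles for neurons and open symbols for the poorly aligned libraries. The sums of astrocyte and radial glia markers are 56385 to 94670.00 CPM in the 4 well aligned astrocyte libraries and 24867 and 20148 CPM in the neurons, whereas the highest neuronal cytoskeleton sum, 15130.00 CPM, is in astrocyte replicate 3.

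The 29 genes of the neuronal cytoskeleton and pan-neuronal list summed to 4971, 2386, 15130.00, 8657 and 5047 CPM in the astrocytes and 7296 and 5408 CPM in the neurons. Tubb3, the neuronal tubulin, was at 468, 67.9, 1345, 1318 and 530.3 CPM in the astrocytes and 489 and 168 CPM in the neurons, Tuba1a, a tubulin of young neurons, at 1384, 798, 3834, 2085 and 1282 CPM against 1712 and 856 CPM, and Dpysl3, of growing axons, at 596, 309.9, 902, 655 and 512 CPM against 736 and 242 CPM. For none of these did the groups separate. Stmn2, a microtubule regulator of neurons, and Dcx, of migrating neurons, also overlapped, and both were highest in astrocyte replicate 3 (1029.9 and 347 CPM).

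Some transcription factors of projection neurons were low in the libraries labelled neurons. Neurod2 was at 2.45, 0, 452, 101 and 88.5 CPM in the astrocytes and 9.67 and 11.97 CPM in the neurons, and its relative Neurod6 at 1.96, 0, 273, 47.00 and 35.5 CPM against 14.5 and 0 CPM. The highest levels of Neurod2, Neurod6, Bhlhe22 and Rbfox3 were all in astrocyte replicate 3.

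Some pan-neuronal genes did separate. Of the 27 tested 9 (33.3%, against 11.9% of all genes) were higher in both neuron libraries than in the well aligned astrocytes, and 4 (14.8%, against 8.73%) over all 7 libraries, Elavl4, Lrrn3, Map2 and Thy1. Over the 5 well aligned libraries 15 of 27 (55.6%, against 21.4%) were higher in neuron replicate 1. Map2, of dendritic microtubules, was at 193, 127, 362, 163 and 189 CPM in the astrocytes and 384 and 464 CPM in the neurons. Elavl4, an RNA-binding protein of neurons, was at 45.00, 56.04, 105, 102 and 94.7 CPM against 188 and 135 CPM, and Thy1, a surface glycoprotein, at 28.05 and 11.97 CPM in the neurons against at most 11.3 CPM. In neuron replicate 2, where 3 reads were 8.98 CPM, the gap for Thy1 was small beside counting error. The median log2 fold change of the list was 0.26 with all 7 libraries and -0.89 over the well aligned ones, so that its direction turned with the libraries used. Tubb2b, a tubulin also made by progenitors, was the single member higher in every astrocyte library (254 to 690.4 CPM against 238 and 162 CPM).

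Of 24 voltage-gated channel genes 21 were tested, and 5 (23.8%, against 8.73% of all genes) were higher in both neuron libraries than in every astrocyte library: the sodium channels Scn3a and Scn8a, the potassium channels Kcna2 and Kcnc1, and Cacna2d1, an auxiliary subunit of calcium channels. Over the 5 well aligned libraries 11 of the 21 (52.4%, against 21.4%) were higher in the neuron library, Kcnd2 and Cacna1a among them. No member was higher in every astrocyte library, over the 7 libraries or the 5. Scn8a was at 62.1, 47.5, 0, 20.99 and 34.9 CPM in the astrocytes and 77.8 and 207 CPM in the neurons, and Kcna2 at 29.4, 28.2, 5.72, 38.8 and 3.74 CPM against 50.8 and 227 CPM. Scn3a, a sodium channel of the embryonic and newborn brain, was at 1.91 to 23.1 CPM against 40.1 and 50.9 CPM. Kcnd2 overlapped over the 7 libraries (0 to 73.5 CPM against 75.9 and 20.9 CPM). The summed level of the list was 385, 269.8, 551, 371 and 289.8 CPM in the astrocytes and 561 and 781 CPM in the neurons, both above every astrocyte library.

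Of 23 synaptic vesicle and release genes tested 1, Bsn of the presynaptic active zone, was higher in both neurons (4.35%, against 8.73% of all genes), at 45.5 and 14.96 CPM against 0 to 13.3 CPM. In neuron replicate 2, where 3 reads were 8.98 CPM, the gap for Bsn was small beside counting error. Vamp2, of vesicle fusion, was at 158, 178, 181, 185 and 213 CPM in the astrocytes and 142 and 254 CPM in the neurons, and Syt1, the calcium sensor of release, at 0 to 97.3 CPM and 0 and 0 CPM. Neither separated the groups. The 5 well aligned libraries gave 5 of the 23 (21.7%, against 21.4%) higher in the neuron library and 2 (8.7%, against 18.9%) in the astrocytes. Of 24 receptor and scaffold genes 2, Dlg3 and Nlgn2 (8.33%, against 8.73%), were higher in both neurons and 1, Gria1 (4.17%, against 5.27%), in the astrocytes, and over the 5 well aligned libraries 5 (20.8%, against 21.4%) and 4 (16.7%, against 18.9%). Nlgn2, an adhesion protein of inhibitory synapses, was at 134, 65.3, 34.3, 92.6 and 61.7 CPM against 142 and 153 CPM. Gria2, an AMPA receptor subunit, was at 379, 268, 866, 295 and 491 CPM against 429 and 2496 CPM, and Grm5 at 218, 245, 40.1, 188 and 62.3 CPM against 137 and 189 CPM. In axon guidance and adhesion 2 of 27 genes tested (7.41%, against 8.73%), Plxna2 and Sema3c, were higher in the neurons and 1 (3.7%, against 5.27%), Efnb3, in the astrocytes, and over the 5 well aligned libraries 8 (29.6%, against 21.4%) and 4 (14.8%, against 18.9%). Ncam1, Plxnb1 and Epha5, of that list, overlapped.

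Among the 26 cortical neuron transcription factors 3 (11.5%, against 8.73% of all genes) were higher in both neuron libraries, and 7 (26.9%, against 11.9%) when astrocyte replicate 3 was left out. The count was again 7 (26.9%, against 21.4%) over the 5 well aligned libraries, and 0 were higher in the astrocytes. The list summed to at most 3511 CPM in the astrocytes and to 1938 and 4612 CPM in the neurons. Pou3f3, which acts with Pou3f2 in upper layer neurons and progenitors, was at 255, 271, 240.3, 289 and 386 CPM in the astrocytes and 395 and 1625 CPM in the neurons, and Pou3f2 at 230.4, 147, 271, 188 and 143 CPM against 231 and 1484 CPM, which overlapped through replicate 3. In both genes neuron replicate 2 was far above neuron replicate 1. Etv1, a factor of layer 5 neurons, was at 18.2 to 38.6 CPM against 108 and 71.8 CPM, and Tle4, of corticothalamic neurons, at 29.3 to 66.1 CPM against 107 and 192 CPM. Lmo4 was at 119, 109, 309, 117 and 119.7 CPM against 185 and 311 CPM.

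**Figure D3:**
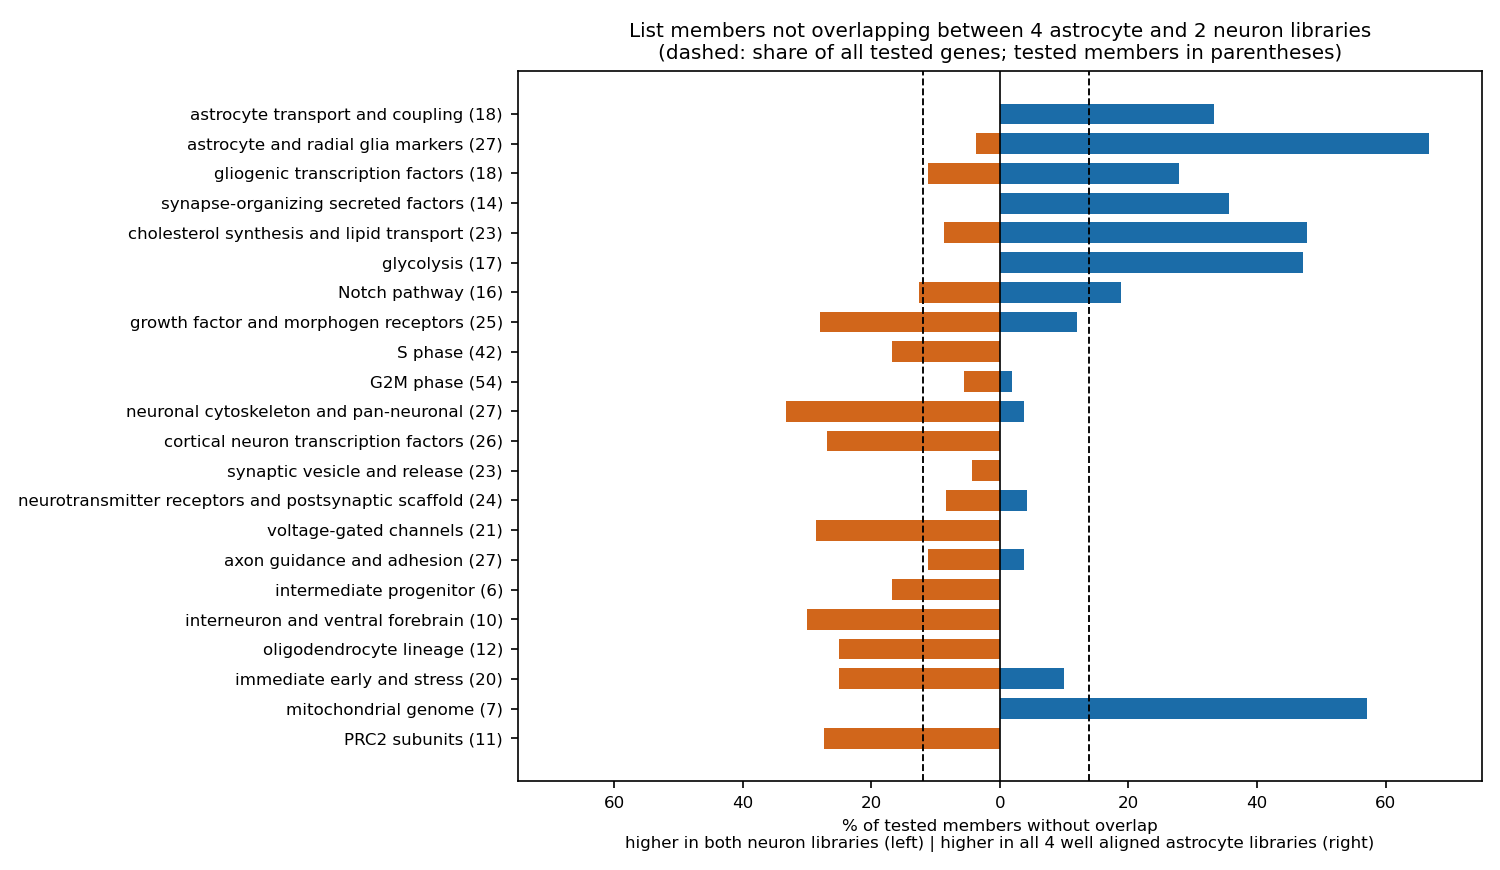
Percent of the tested members of each list whose levels did not overlap between the 4 well aligned astrocyte and the 2 neuron libraries, with astrocyte-higher members to the right and neuron-higher members to the left; dashed lines mark 13.9% and 11.9%, the shares of all 12254 genes. Astrocyte markers (66.7%), mitochondrial transcripts (57.1%), cholesterol (47.8%) and glycolysis (47.1%) reach farthest to the right, and pan-neuronal (33.3%), interneuron (30%) and channel genes (28.6%) to the left.

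Markers of other cell types were present in both gates. Of the 10 interneuron and ventral forebrain genes tested 3 (30%, against 8.73% of all genes) were higher in both neuron libraries, and 5 (50%, against 21.4%) were higher in the neuron library over the 5 well aligned libraries. Among them Gad1, which makes GABA, was at 17.1, 0, 34.3, 68.4 and 0 CPM in the astrocytes and 98.2 and 92.8 CPM in the neurons, and Erbb4, a neuregulin receptor, at 0 to 11.2 CPM against 66.2 and 23.9 CPM. The summed level was 973, 155, 1081, 1077 and 13.7 CPM in the astrocytes and 1171 and 1101 CPM in the neurons, so that 3 astrocyte libraries came close to the neurons. Dlx1 (155, 38.97, 129.7, 178 and 0 CPM and 174 and 278 CPM) and Dlx2 (335, 2.60, 313, 311 and 0 CPM and 186 and 56.9 CPM), homeobox factors of interneurons, overlapped. Lhx6 and Nkx2-1, which define interneurons of the medial ganglionic eminence, were at or under 3.87 CPM in every library.

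In the oligodendrocyte lineage Olig2 and Pdgfra were higher in both neuron libraries (2 of 12, 16.7%, against 8.73% of all genes), and over the 5 well aligned libraries 4 were higher in the neuron library (33.3%, against 21.4%). Olig2, a factor of the lineage that some astrocytes keep, was at 50.4, 222, 26.7, 123 and 323 CPM in the astrocytes and 374 and 323 CPM in the neurons, where astrocyte replicate 5 and neuron replicate 2 were almost equal. Pdgfra, the receptor of oligodendrocyte precursors, was at 149, 19.7, 87.7, 0 and 215 CPM against 421 and 260.4 CPM, while Olig1 overlapped (1725, 1439, 1781, 1171 and 1819 CPM and 1191 and 209.5 CPM). Myelin genes marked a single library: Mbp was at 2029 CPM in astrocyte replicate 1, at or under 11.9 CPM in the other astrocytes and at 101 and 41.9 CPM in the neurons, and Cnp was at 1489.5, 481, 74.4, 326 and 211 CPM against 405 and 35.9 CPM. The part of these cells in any difference was not tested.

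Microglial genes summed to 4.40, 476, 114, 48.4 and 0 CPM in the astrocytes and 30.9 and 0 CPM in the neurons. The microglial receptor Cx3cr1 was at 0, 73.5, 93.5, 17.3 and 0 CPM against 2.90 and 0 CPM, C1qc, of complement, reached 95.4 CPM and Tyrobp, a microglial adaptor, 28.9 CPM. Endothelial and pericyte genes (Rgs5, Vtn, Flt1 and 7 others) summed to at most 52.8 CPM and erythroid genes (Hba-a1, Hbb-bs, Alas2 and 2 others) to at most 25.1 CPM. No tested member of these lists, 4 microglial and 2 endothelial or pericyte, separated the groups over the 7 libraries or the 5 well aligned ones.

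Among growth factor and morphogen receptors 25 of 27 were tested, 7 (28%, against 8.73% of all genes) were higher in both neuron libraries and 1 (4%, against 5.27%), Fgfr1, in the astrocytes. Over the 5 well aligned libraries these counts were 9 (36%, against 21.4%) and 6 (24%, against 18.9%). The 7 were the activin, BMP and TGF-beta receptors Acvr1, Acvr2a, Bmpr2 and Tgfbr1, the hedgehog receptor Ptch1, the Wnt co-receptor Lrp6 and the insulin-like growth factor receptor Igf1r. Ptch1 was at 73.9, 102, 0, 71.6 and 1.25 CPM in the astrocytes and 132 and 266 CPM in the neurons, and Lrp6 at 79.7, 79.4, 9.54, 36.05 and 82.9 CPM against 150.4 and 132 CPM. Fgfr1, a fibroblast growth factor receptor, was at 356, 427, 322, 295 and 333 CPM against 149.9 and 227 CPM, with astrocyte replicate 3 among the other astrocytes. Ntrk2, the BDNF receptor that astrocytes make in truncated form, was at 1004, 1514, 216, 1341 and 944 CPM against 498 and 533 CPM, and Fzd3, a Wnt receptor of axon tracts, at 141, 189, 141, 175 and 146 CPM against 175 and 482 CPM. Both overlapped over the 7 libraries.

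Of 42 S phase genes tested 5 (11.9%, against 8.73% of all genes) were higher in both neuron libraries and 0 (against 5.27%) in the astrocytes, and of 54 G2M phase genes 2 (3.7%) and 0. The 5 well aligned libraries gave 11 S phase genes (26.2%, against 21.4%) higher in the neuron library and 1 (2.38%, against 18.9%), Uhrf1, in the astrocytes, and 5 (9.26%) and 2 (3.7%) of the G2M phase genes. Nasp, a histone chaperone, was at 140.4, 60.9, 126, 152 and 57.3 CPM in the astrocytes and 162 and 626 CPM in the neurons. Rrm2, which makes nucleotides for replication, was at 126, 20.4, 0, 265 and 18.1 CPM against 154 and 114 CPM and overlapped, as did Top2a, of mitotic chromosomes, at 368, 30.4, 193, 169 and 0 CPM against 162 and 410.02 CPM. Cbx5, a heterochromatin protein, and Jpt1 overlapped as well. Uhrf1, a factor of DNA methylation maintenance, was at 275, 383, 4453, 324 and 1490.00 CPM against 98.2 and 6375 CPM, with its highest values in the poorly aligned libraries.

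Of 11 genes of PRC2, which methylates histone H3 to keep genes silent, 3 (27.3%, against 8.73% of all genes) were higher in both neuron libraries, and the same 3 were higher in the neuron library over the 5 well aligned libraries (against 21.4%). They were the core subunit Suz12, at 22.01, 27.5, 38.1, 25.6 and 16.2 CPM in the astrocytes and 43.03 and 129 CPM in the neurons, the accessory subunit Mtf2, at 69.95, 43.1, 59.1, 63.9 and 49.9 CPM against 99.1 and 254 CPM, and Aebp2. Ezh2, the methyltransferase, was at 134, 77.2, 89.6, 167 and 79.1 CPM against 134 and 374 CPM and Rbbp4, a histone-binding subunit, at 228, 161, 177, 249 and 274 CPM against 176 and 44.9 CPM, and both overlapped.

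Genes that respond to activity and to dissociation of tissue were mixed. Of 20 tested 5 (25%, against 8.73% of all genes) were higher in both neurons, Btg1, Egr2, Egr3, Fosb and Hsp90aa1, and 1 (5%, against 5.27%) in the astrocytes, Hspa5, a chaperone of the endoplasmic reticulum. With the 5 well aligned libraries the counts were 5 (25%, against 21.4%) and 4 (20%, against 18.9%). Fos was at 1016, 2702, 0, 928 and 508 CPM in the astrocytes and 660.5 and 539 CPM in the neurons. Btg1, an antiproliferative gene, was at 472, 368, 307, 417 and 411 CPM against 522 and 2553 CPM, and Hspa5 at 947, 879, 739.99, 892 and 762 CPM against 703 and 299 CPM. The median log2 fold change of the list was -0.00.

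Mitochondrial transcripts were higher in every astrocyte library for mt-Co1, mt-Cytb, mt-Nd1 and mt-Nd5 (4 of 7 tested, 57.1%, against 5.27% of all genes). The 5 well aligned libraries gave 4 (57.1%, against 18.9%) and 1 higher in the neuron library (14.3%, against 21.4%). mt-Co1, a subunit of cytochrome oxidase, was at 4728, 5585, 7821, 5686 and 6602 CPM in the astrocytes and 2821 and 135 CPM in the neurons, mt-Cytb at 10651, 11412, 17832, 12289 and 16159 CPM against 6484 and 245 CPM, and mt-Nd1 at 6170.4, 6376, 8075, 6625 and 8277 CPM against 4734 and 123 CPM. Neuron replicate 2 was by far the lowest, and the list summed to 19405 CPM in neuron replicate 1 and 856 CPM in replicate 2, against 26910.00 to 40255 CPM in the astrocytes. All mitochondrial genes together held 5.84% and 2.97% of the gene counts in the neurons, against 5.94% to 12.6% in the astrocytes. The drop in neuron replicate 2 was thus much smaller over the whole mitochondrial genome than over the list. The median log2 fold change was 1.55, and 0.43 over the well aligned libraries.

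Each neuron library was then set against the mean of the 4 well aligned astrocyte libraries (log2 ratio, pseudocount 1 CPM), so that both ratios share that mean. The median over all genes was -0.09 in neuron replicate 1 and -0.63 in replicate 2. Astrocyte and radial glia markers were at -1.36 and -2.17, and 20 of 27 (74.1%) were below the astrocyte mean in both libraries, against 39.8% of all genes. Cholesterol genes were at -0.59 and -0.96, with 17 of 23 (73.9%) below in both, and glycolytic genes at -0.69 and -3.17. Pan-neuronal genes were at 0.77 and -0.02, with 12 of 27 (44.4%) above in both, against 25.2% of all genes, and channel genes at 0.61 and 0.22. Interneuron genes were at 1.23 and 1.14, with 8 of 10 above in both. Astrocyte replicate 3, treated the same way, was at -1.95 for the astrocyte markers and 1.47 for the pan-neuronal genes, against -1.72 for all genes.

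**Figure D4:**
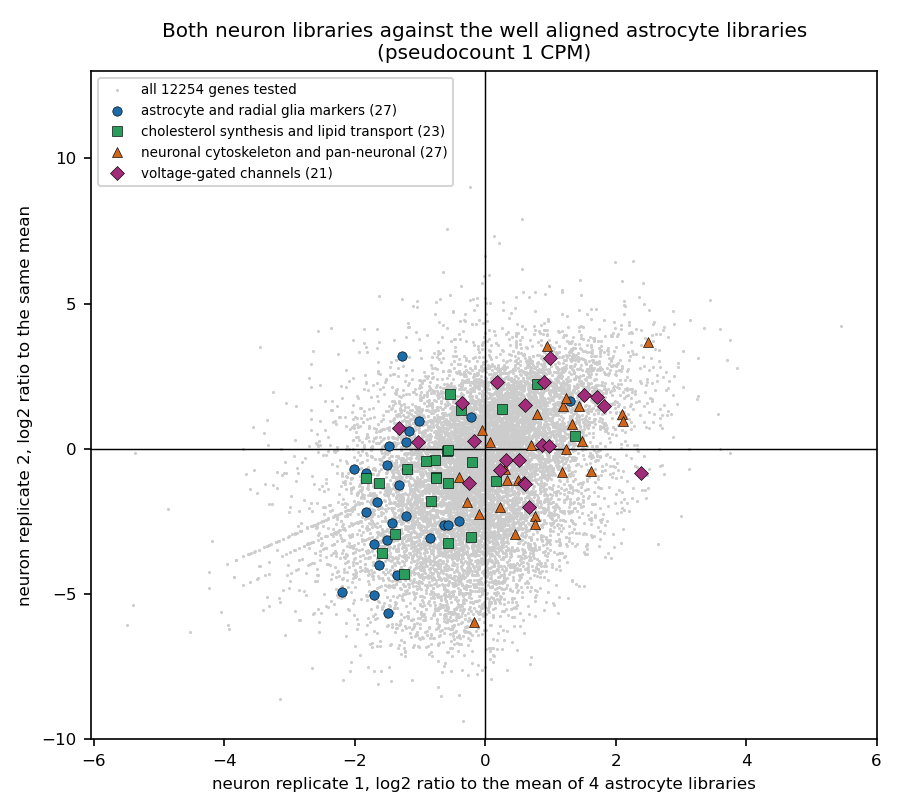
Log2 ratio of neuron replicate 1 (horizontal axis) and replicate 2 (vertical axis) to the mean of the 4 well aligned astrocyte libraries, for all 12254 genes (grey) and the tested members of 4 lists; both axes share the astrocyte mean, which by itself spreads points along the diagonal. Of the 27 astrocyte markers 20 fall in the lower left, and of the 27 pan-neuronal genes 12 in the upper right.

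The 20 genes that follow were chosen after their values were seen, as the 10 of smallest p in each direction whose groups did not overlap over the 7 libraries. Every gene that DESeq2 called over the same libraries was among the 20, except Gm23935. Fads2 (ENSMUSG00000024665.7, chr19:10062765-10101746, minus strand), a desaturase of polyunsaturated fatty acids, was at 732, 1260.1, 379.5, 797 and 1125 CPM in the astrocytes and 114 and 32.9 CPM in the neurons, a log2 fold change of 3.52 ± 0.77. Plec, a linker of the cytoskeleton, was at 205, 275, 221, 188 and 121 CPM against 27.1 and 32.9 CPM (2.76 ± 0.69), with the neuron libraries close to each other. Grm3, a metabotropic glutamate receptor of astrocytes, was at 565, 1053, 277, 592 and 416 CPM against 154 and 68.8 CPM, and Plat, the tissue plasminogen activator, at 388, 733, 202, 325 and 899 CPM against 88.97 and 53.9 CPM. For Fads2, Grm3 and Plat the lowest astrocyte library was replicate 3. The others were Fkbp10 and P4ha3, of collagen folding and hydroxylation, Serpinf1, a secreted serpin, Csdc2, Pink1 and Islr, and their log2 fold changes lay between 2.38 and 3.73.

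On the neuron side the 10 genes were Chchd2, Cacng4, BC005537, Luc7l3, Dhx15, Anp32b, Zeb2, Crocc, Hnrnph1 and Upf3b, and neuron replicate 2 was the highest library for each. Cacng4 (ENSMUSG00000020723.3, chr11:107732357-107794557, minus strand), an auxiliary subunit of AMPA receptors, was at 61.1, 89.8, 120.2, 101 and 46.7 CPM in the astrocytes and 319.6 and 1454 CPM in the neurons (log2 fold change -3.40 ± 0.60). Zeb2, a transcription factor of neuronal and oligodendrocyte differentiation, was at 121, 52.7, 30.5, 78.5 and 63.6 CPM against 199 and 661 CPM. Hnrnph1 and Luc7l3, which act in RNA splicing, were at 158, 59.8, 68.7, 113 and 24.9 CPM against 290.1 and 826 CPM and at 136, 148, 204, 134 and 158 CPM against 279 and 2179 CPM. Chchd2, a mitochondrial protein, was at 161, 154, 105, 188 and 164 CPM against 250.5 and 7063 CPM, and without neuron replicate 2 its log2 fold change was -0.81, against -4.56 ± 0.79 with it. For Cacng4 and Zeb2 the values without that library were -2.06 and -1.62.

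Some genes were very high in neuron replicate 2 alone or with astrocyte replicate 3. Lipe, the hormone-sensitive lipase, was at 117, 200.1, 3883, 109 and 681 CPM in the astrocytes and 88.5 and 10607 CPM in the neurons. The gene of smallest p, Gm23935, was at 28.9, 20.4, 30.5, 13.7 and 14.96 CPM against 16.4 and 10583 CPM, and its groups overlapped. Actb, the cytoplasmic actin, was by contrast higher in every astrocyte library (9164, 6236, 8066, 8310.4 and 7309.7 CPM against 5854 and 1616 CPM).

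**Figure D5:**
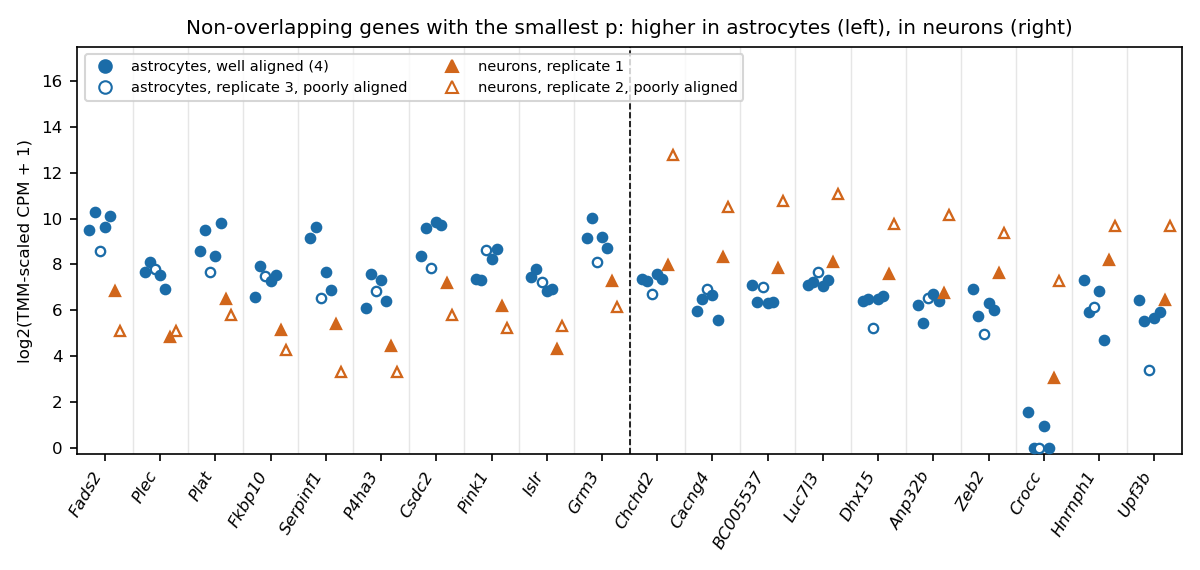
Levels of the 20 non-overlapping genes of smallest p, as log2 of TMM-scaled CPM plus 1, with one point per library; circles are astrocytes, triangles neurons, and open symbols the poorly aligned libraries. On the left both triangles lie under all circles, and on the right the open triangle, neuron replicate 2, is the highest point for each gene.

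Both poorly aligned libraries were then left out, which leaves 1 neuron library that is assumed to vary like the astrocytes. The result then rested on the tool: edgeR and limma-voom called 0 genes (625 and 913 at an unadjusted p under 0.05), while DESeq2, in a fit chosen after seeing the data, called 186 of 2746 genes (6.77%) higher in the astrocytes and 6 (0.218%) higher in neuron replicate 1. The 186 held 16 of the 27 astrocyte and radial glia markers, among them Apoe, Aldh1l1, Fabp7 and Mfge8, and 4 of the 18 transport genes, Aqp4, Mlc1 and Slc1a3 among them. The 6 were Cacng4, Cnot6, Ddx17, Pum2, Mex3a and Zfp704. Pum2, a repressor of translation, was at 76.8, 73.5, 0, 90.3 and 38.01 CPM in the astrocytes and 244 and 344 CPM in the neurons, and Cnot6, a deadenylase, at 94.4, 89.8, 0, 83.96 and 108 CPM against 266 and 458 CPM. No gene of the neuronal lists was among the calls.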

How the data were processed

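Cells were sorted after papain digestion and LacZ staining, full-length cDNA libraries of polyA RNA were made by Smart-Seq v2, and sequencing was on an Illumina HiSeq instrument. The authors aligned reads with STAR (builds GRCm38 and mm10 in the submitters' processing notes) and deposited raw per-gene counts of reads that aligned uniquely, neither normalized nor pooled. The gene annotation they counted with is not stated in the sources. The unstranded column was used, without its 4 lines of totals, so overlapping and antisense genes cannot be told apart. All columns used had a sample (0 columns without one). Of 53379 identifiers 53274 matched GENCODE M21 (GRCm38), which gave symbols and coordinates.

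From the counts, edgeR 4.0.16 (R 4.3.3; filterByExpr, TMM, quasi-likelihood F test) compared 5 astrocyte with 2 neuron libraries at a Benjamini-Hochberg adjusted p of 0.05, on 12254 genes. The steps were tested on simulated data with 200 genes changed. The pass conditions were set for a spread between libraries well below that of these 7, so they do not show how the test performs here. Alternatives were RLE factors, no filter, a mean count above 10, DESeq2 1.42.0, limma-voom (limma 3.58.1) with quality weights, all 15 labelled libraries, other subsets of libraries, the run of library numbers and a replicate block. DESeq2 and limma-voom without the poorly aligned libraries, edgeR on 10 well aligned libraries of both genotypes and overlap counts without astrocyte replicate 3 were added after seeing the data. A library was called poorly aligned under 1000000 uniquely aligned reads or under 60% unique. The study excluded libraries of this series without naming them, and all 7 were kept here.

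Named genes were to be the called non-overlapping genes of smallest p, the markers Aqp4, Gfap, Eomes, Lrrn3, Npm1 and Eed, up to 3 uncalled members of each list with the highest levels, and the 5 nuclear protein-coding genes with the highest levels in each group. A few genes that these rules name are not reported here. Members and lists were chosen with earlier results of these data known. Floors cover counting error only. Depth limited neuron replicate 2 and astrocyte replicate 3 most, where 3 counts were 8.98 and 5.72 TMM-scaled CPM.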

Additional observations from a re-analysis of the deposited data

Results flagged for a closer look

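Of 55 quantities examined over the 5 astrocyte libraries, 5 had 1 library far from the other 4 by Dixon's test, which at its 95% level also marks some groups by chance. Astrocyte replicate 3 stood apart by the summed level of neurotransmitter receptor and postsynaptic scaffold genes (2859 CPM, others 1244 to 1478 CPM), by its reads outside genes (48.1% of the uniquely aligned reads) and by Dhx15, an RNA helicase (36.2 CPM, others 83.6 to 96.6 CPM). Astrocyte replicate 1 stood apart by its oligodendrocyte lineage genes, which summed to 6858 CPM. Astrocyte replicate 2 stood apart by its microglial genes, which summed to 476 CPM.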

How the results depend on the processing

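The count of 0 called genes stayed 0 with RLE factors, a mean count above 10, limma-voom, the first run of library numbers (4 libraries), the run as a covariate, and edgeR without both poorly aligned libraries or on the 10 well aligned ones. It was 20 without a filter (4 higher in astrocytes, 16 in neurons), 13 with DESeq2 (5 and 8), 1 with all 15 labelled libraries (0 and 1), and 192 with DESeq2 without the poorly aligned libraries (186 and 6). Leaving out 1 library at a time gave 0 to 230 calls, 0 to 166 higher in astrocytes and 0 to 64 higher in neurons, and the only count above 0 came without neuron replicate 1, when the poorly aligned neuron replicate 2 stood alone. With the replicate block, over replicates 1 and 2 of each group, 2 genes were called, 0 higher in astrocytes and 2 in neurons. The numbers were not taken to pair libraries, since the labels do not say what a number marks. Deviations of same-numbered libraries had r = -0.02 and -0.04 across genes. With 2 neuron libraries the deviations of one mirror those of the other, so these values cannot show or reject shared animals. The cause of these differences was not tested, beyond the libraries or genes each alternative leaves out. Of 100 named genes with both values, 16 changed direction when both poorly aligned libraries were left out of edgeR, among them Slc1a2 (log2 fold change -0.30 with and 0.85 without them), Lfng (-0.89 and 0.71), Uhrf1 (-1.22 and 2.57), Lipe (-2.42 and 1.56), Dpysl3 (0.28 and -0.61) and Gm23935 (-7.94 and 0.14).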
